A study of Homo sapiens with 12 samples.

Results

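The genes described here are 6 components of the relay that carries signals from Toll-like and interleukin-1 receptors to NF-κB and the MAP kinases: MYD88, IRAK4, IRAK1, IRAK2, TRAF6 and MAP3K8, which encodes the kinase TPL2. They were chosen by name, for their place in this relay, with earlier results of these data known. They are 6 of the 33093 genes kept from the count table. RNA-seq was performed on 12 samples of HEK293T cells, a human embryonic kidney line, in 4 groups of 3. WT cells and NFKB1 S80A cells, in which serine 80 of the NF-κB subunit p50 is replaced by alanine, were either left untreated or given 10 ng/ml TNFα for 3 h. The NFKB1 S80A cells were made by CRISPR/Cas9 editing with puromycin selection and isolated as single cell clones, and how many clones were sequenced is not given in the sources used here, so differences between the genotypes and differences between a clone and its parent line cannot be told apart. Reads were counted per gene, and the total per sample ran from 15624878 to 20889577.

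In this relay, ligand-bound receptors recruit the adaptor MYD88, whose death domain assembles the kinases IRAK4 and IRAK1 or IRAK2 into a complex. IRAK4 activates the other IRAKs, which engage the E3 ubiquitin ligase TRAF6, and the ubiquitin chains it builds activate the kinase TAK1 and then the IKK complex. TPL2 is held by p105, the NFKB1 product from which p50 is cut, and by ABIN2, the product of TNIP2. IKK phosphorylation of p105 frees TPL2 to activate MEK and ERK. The TNFα receptor reaches TAK1 and IKK through other adaptors, without MYD88 and the IRAKs. The comparisons asked which of the 6 transcripts responded to TNFα, which differed between the genotypes, and whether the response differed between them.

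In GRCh38, MYD88 spans 38138552 to 38143024 and IRAK2 10164919 to 10243745, both on the plus strand of chromosome 3. IRAK4 spans 43758944 to 43798307 on the plus strand of chromosome 12, and IRAK1 154010506 to 154019902 on the minus strand of chromosome X. TRAF6 spans 36483769 to 36510272 on the minus strand of chromosome 11, and MAP3K8 30434021 to 30461833 on the plus strand of chromosome 10. Of the 6 genes, IRAK4 alone overlapped another annotated gene in its exons: it shares 103 bases of exon, 1.41% of its exonic length, with TWF1 on the opposite strand, and whether the counting used strand is not given in the sources used here.

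The promoters of IRAK2 and MAP3K8 are shown because these were the members whose transcripts rose with TNFα. Each line holds the 250 bases before the annotated start in RefSeq (GRCh38.p14), 5′ to 3′ on the plus strand, with matches to the κB consensus, the binding motif of NF-κB dimers, in capitals. The regions are chr10:30433771-30434020 and chr3:10164669-10164918.
MAP3K8: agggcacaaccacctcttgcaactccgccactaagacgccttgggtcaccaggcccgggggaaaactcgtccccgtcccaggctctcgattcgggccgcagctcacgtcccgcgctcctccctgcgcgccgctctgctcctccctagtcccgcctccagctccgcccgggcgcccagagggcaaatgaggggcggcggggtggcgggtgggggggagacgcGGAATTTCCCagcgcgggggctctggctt
IRAK2: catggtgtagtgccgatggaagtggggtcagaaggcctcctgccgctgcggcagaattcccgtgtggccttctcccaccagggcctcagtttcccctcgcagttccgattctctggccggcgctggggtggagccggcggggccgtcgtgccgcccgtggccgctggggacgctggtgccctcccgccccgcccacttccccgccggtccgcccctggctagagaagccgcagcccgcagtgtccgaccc
The MAP3K8 sequence held 1 match, 29 bases before the first annotated start, which on the minus strand reads GGGAAATTCC. Later MAP3K8 starts are annotated, and another site, GGGGATTCCC, lies 207 bases before the third. IRAK2, IRAK1, IRAK4, MYD88 and TRAF6 had no match in their windows from 250 bases before to 50 after the start, searched on both strands. Among all 35116 RefSeq promoter windows of that length, 5.91% held the consensus. Such shares are per window, and MAP3K8 had 3 windows where each other member had 1. Both MAP3K8 sites have an A at position -1, a form found in 1.42% of windows. A form with 3 G, any 2 bases, 3 T and 2 C, which overlaps with the consensus, was in 1.91% of windows and in none of the members' windows. A match is a description of the sequence and not of binding.

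Before the results, the state of the samples bears on how they can be read. Of 7 markers of HEK293T cells, 6 were detected with at least 10 counts, and PAX8 was at 0 counts. NEFM, a neurofilament gene, had 1838 ± 133 normalised counts in untreated WT cells but 4.49 ± 2.38 in untreated NFKB1 S80A cells (SD, n = 3). The leukocyte list had 1 of 7 genes, CD68, reaching 10 counts, with PTPRC and CD3E at 0, and summed to between 1.92 and 4.09 CPM, that is counts relative to the library size, across the 12 samples. None of 3 endothelial genes reached 10 counts. Of 4 fibroblast genes 3 did, and COL1A1, a collagen gene that carried most of that list's counts, had 277 ± 21.4 in untreated WT and 120.0 ± 10.1 in untreated NFKB1 S80A cells. Within groups, replicates varied beyond counting noise, with a chi-square per gene from 2.90 to 38.2, the highest between untreated NFKB1 S80A replicates 1 and 2. TNFα-treated WT replicate 3 carries the same description as replicate 2 in the labels and was matched to its counts by its title. It differed from replicates 1 and 2 of its group by 13.6 and 14.3 in chi-square per gene, against 2.96 between those. Without it the calls given below for MAP3K8 and IRAK2 with TNFα in WT cells (log2 fold changes 1.24 and 0.82) and for MYD88 between treated genotypes (0.96, adjusted p = 0.0284, edgeR) were retained. Values below are normalised read counts, that is counts divided by the library size after scaling by edgeR's TMM method, relative to its mean. Log2 fold changes, standard errors (SE) and adjusted p-values come from the quasi-likelihood test of edgeR, adjusted by the Benjamini-Hochberg method over the 14383 genes tested, and an adjusted p under 0.05 is called a change. The repair template carried the S80A codon and synonymous changes beside it, and counts per gene cannot check such an edit. NFKB1 read counts averaged 1013 ± 72.6 in untreated WT and 965 ± 91.5 in untreated NFKB1 S80A cells.

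TNFα raised MAP3K8 and IRAK2 in both genotypes, and none of the other 4 genes passed the test. In WT cells the 2 genes that changed were 2 of 6, against 0.688% of all genes tested, and both rose, against 0.577% of all genes. For these 2 genes the treated and untreated WT samples did not overlap, as for 12.7% of all genes. In NFKB1 S80A cells they were again 2 of 6, against 1.26% of all genes and 0.966% that rose. Their treated and untreated samples did not overlap there either, as for 14.4% of all genes. The comparison of treated with untreated WT cells and that of untreated cells of either genotype share the untreated WT samples, and likewise for the other groups, so their values are given side by side and not as independent evidence.

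**Figure D1:**
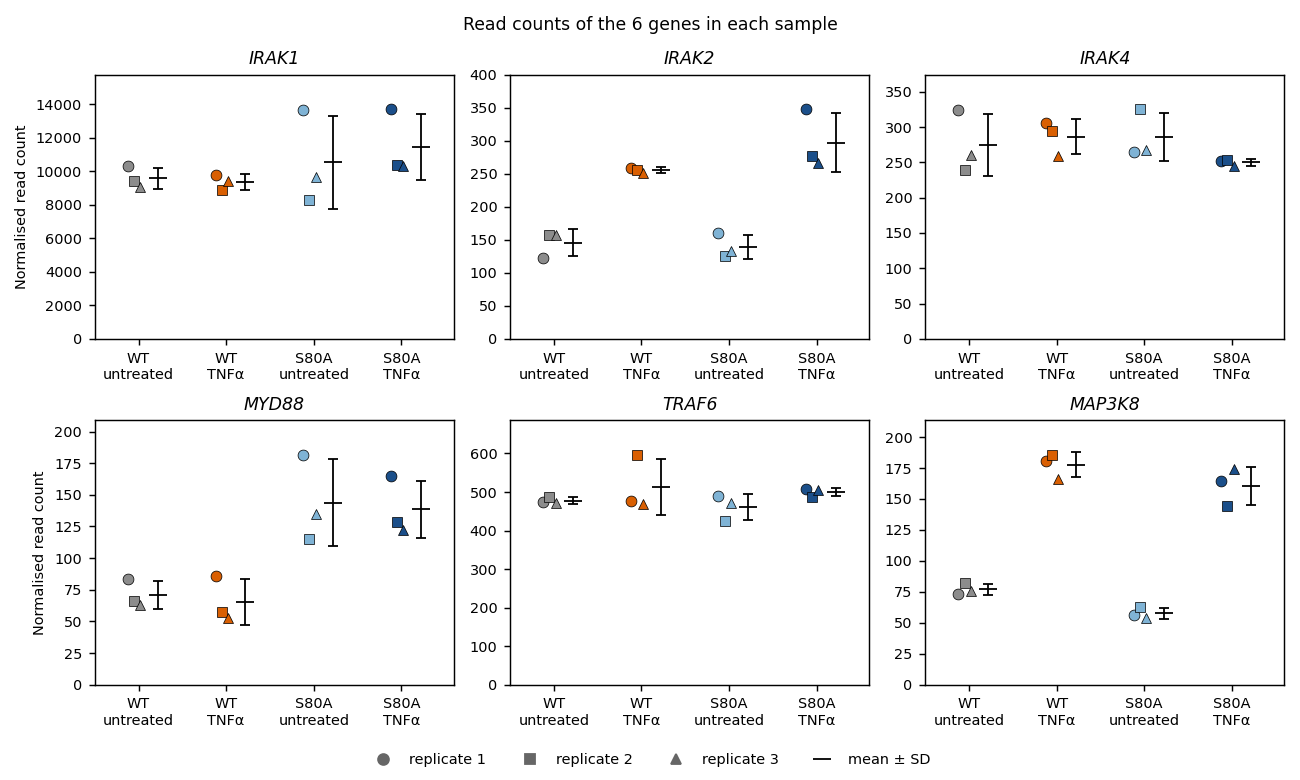
Normalised read counts (vertical axes, from 0) of the 6 genes in each of the 12 samples, by group (horizontal axes). Circles, squares and triangles are replicates 1, 2 and 3, and the bar beside them is the mean ± SD of 3 samples. MAP3K8 and IRAK2 rise with TNFα in both genotypes, from means of 77.0 to 178 and of 146 to 255 in WT cells, while MYD88 is higher in NFKB1 S80A cells with either treatment.

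MYD88, the adaptor at the head of the relay, was the member that differed most between the genotypes. Untreated WT replicates 1 to 3 had 83.9, 66.2 and 62.9 normalised counts and TNFα-treated WT replicates 86.1, 57.3 and 52.9. Untreated NFKB1 S80A replicates had 182, 115 and 135, and those given TNFα had 165, 129 and 122. Every NFKB1 S80A sample lay above every WT sample, and replicate 1 was the highest of its group in all 4 groups. Groups of 3 did not overlap between genotypes for 25.0% of all genes tested in untreated cells and 26.2% after TNFα. The raw counts behind these values were 54 to 83 in WT cells and 96 to 196 in NFKB1 S80A cells. Without TNFα, MYD88 was 2.04-fold higher in NFKB1 S80A cells (log2 fold change 1.03, SE 0.21, adjusted p = 0.0108, edgeR). After TNFα it was 2.13-fold higher (1.09, SE 0.22, adjusted p = 0.00787, edgeR). Between samples of the same replicate number the log2 difference was 1.12, 0.80 and 1.10 in untreated cells and 0.93, 1.17 and 1.21 after TNFα. The sign of these differences adds nothing, because every NFKB1 S80A sample lay above every WT sample.

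The MYD88 difference was retained but became smaller without the replicate 1 samples of the NFKB1 S80A groups. With both left out, the log2 difference was 0.82 in untreated cells and 0.94 after TNFα, and the adjusted p from edgeR was 0.0320 and 0.0217. The call was lost in some fits that left out 1 WT sample. In untreated cells this was so without WT replicate 2 (log2 fold change 0.98, adjusted p = 0.0615, edgeR) and without WT replicate 3 (0.95, adjusted p = 0.0559). After TNFα it was so without WT replicate 2 (1.00, adjusted p = 0.0502). All genes called also fell in these fits, from 900 to 356 and 432 in untreated cells and from 1058 to 434 after TNFα. The reason was not tested. MYD88 was the 1 of 6 members called in each genotype comparison, against 6.26% of all genes in untreated cells (2.05% higher) and 7.36% after TNFα (2.92% higher). The part that NEFM and the other differences between these cells have in the MYD88 difference was not tested, and in bulk RNA fewer expressing cells and less RNA per cell cannot be told apart. No change of MYD88 with TNFα was called in either genotype: the log2 response was -0.12 in WT cells (95% interval -0.61 to 0.37) and -0.06 in NFKB1 S80A cells (-0.49 to 0.38).

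IRAK4, the kinase that acts first in the complex, stayed between 239 and 326 normalised counts in all 12 samples. Untreated WT replicates had 324, 239 and 261, and WT replicates given TNFα 306, 294 and 258. Untreated NFKB1 S80A replicates had 265, 326 and 267, and those given TNFα had 251, 254 and 245. The TNFα-treated NFKB1 S80A samples formed the tightest group and lay below both the untreated NFKB1 S80A samples and the TNFα-treated WT samples. Neither difference passed the test: the log2 response in NFKB1 S80A cells was -0.19 (95% interval -0.46 to 0.08, adjusted p = 0.680, edgeR), and the genotype difference after TNFα was -0.20 (-0.47 to 0.08, adjusted p = 0.407). Groups of 3 did not overlap for 14.4% of all genes in the first comparison and 26.2% in the second. In WT cells the log2 response of IRAK4 was 0.06 (95% interval -0.21 to 0.33).

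IRAK1, the kinase that IRAK4 phosphorylates and that binds TRAF6, had by far the most reads of the 6. Untreated WT replicates had 10290.5, 9424 and 9049 normalised counts, and WT replicates given TNFα 9772, 8878 and 9427. Untreated NFKB1 S80A replicates had 13646, 8313 and 9683, and those given TNFα had 13718, 10355 and 10287. Both NFKB1 S80A samples numbered 1 stood above the others, and the remaining 4 lay between 8313 and 10355. The genotype groups overlapped without TNFα, and after TNFα the NFKB1 S80A samples all exceeded the WT samples. Groups of 3 did not overlap for 26.2% of all genes in that second comparison. The log2 difference between genotypes was 0.14 in untreated cells (95% interval -0.18 to 0.46) and 0.29 after TNFα (-0.03 to 0.61), with adjusted p = 0.679 and 0.276 from edgeR. Without both samples numbered 1, these differences were -0.09 and 0.14 (adjusted p = 0.580 and 0.403), so the sign in untreated cells rested on 1 sample. Averaged over treatments the difference was 0.21 (adjusted p = 0.199, edgeR), and of the 12 fits that left out 1 sample it passed the test only in that without untreated NFKB1 S80A replicate 2, at 0.29 (adjusted p = 0.0305). The log2 response to TNFα was -0.03 in WT cells (95% interval -0.36 to 0.29) and 0.12 in NFKB1 S80A cells (-0.20 to 0.44).

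IRAK2, a close relative of IRAK1 that binds TRAF6 and sustains signalling at later times, was the IRAK that rose with TNFα. Untreated WT replicates had 122, 157 and 158 normalised counts, and WT replicates given TNFα 259, 256 and 251. Untreated NFKB1 S80A replicates had 160.3, 125 and 133, and those given TNFα had 348, 277 and 266. The treated samples lay above the untreated samples in both genotypes, with the widest spread in treated NFKB1 S80A cells, where replicate 1 was the highest. The rise was 1.75-fold in WT cells (log2 fold change 0.81, SE 0.14, adjusted p = 0.0104, edgeR) and 2.13-fold in NFKB1 S80A cells (1.09, SE 0.14, adjusted p = 0.000498). In WT cells the call was lost without untreated replicate 1, the lowest sample, at a log2 fold change of 0.70 (adjusted p = 0.0637, edgeR). Treated NFKB1 S80A samples lay above treated WT samples, as groups of 3 were apart for 26.2% of all genes in that comparison. The log2 difference was 0.22 (95% interval -0.07 to 0.51, adjusted p = 0.363, edgeR), which did not pass the test, and 0.09 without both samples numbered 1. In untreated cells the log2 difference was -0.06 (95% interval -0.37 to 0.25).

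TRAF6, the ubiquitin ligase below the IRAKs, varied least between groups. Untreated WT replicates had 475, 488 and 470.3 normalised counts, and WT replicates given TNFα 475, 597 and 468. Untreated NFKB1 S80A replicates had 488, 424 and 471, and those given TNFα had 509, 487 and 504. The groups overlapped in every comparison, and 1 sample, TNFα-treated WT replicate 2, stood above all others. Averaged over the genotypes, the log2 response to TNFα was 0.11 (95% interval -0.04 to 0.26), the narrowest interval of the 6 genes, and the log2 difference between genotypes averaged over treatments was -0.04 (-0.20 to 0.11). Neither passed the test (adjusted p = 0.765 and 0.757, edgeR).

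MAP3K8, which encodes the ERK-pathway kinase TPL2, showed the largest response to TNFα of the 6. Untreated WT replicates had 73.5, 82.3 and 75.3 normalised counts, and WT replicates given TNFα 181, 186 and 166. Untreated NFKB1 S80A replicates had 56.5, 62.5 and 53.8, and those given TNFα had 165, 144 and 174. Treated samples lay well above untreated samples in both genotypes, and each untreated NFKB1 S80A sample lay below each untreated WT sample. The rise was 2.30-fold in WT cells (log2 fold change 1.20, SE 0.13, adjusted p = 8.35e-05, edgeR) and 2.80-fold in NFKB1 S80A cells (1.49, SE 0.13, adjusted p = 1.19e-05). The difference in untreated cells was -0.43 on the log2 scale (95% interval -0.73 to -0.13) and did not pass the test (adjusted p = 0.0913, edgeR), while groups of 3 did not overlap for 25.0% of all genes in that comparison. After TNFα the groups overlapped, with a log2 difference of -0.14 (95% interval -0.39 to 0.11, adjusted p = 0.535, edgeR).

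The average of both genotype comparisons put MAP3K8 just past the threshold, 1.22-fold lower in NFKB1 S80A cells (log2 fold change -0.28, SE 0.09, adjusted p = 0.0468, edgeR). This was fragile. It was lost with the DESeq2 test (adjusted p = 0.0900), with no filter on low counts (0.101) and in 9 of the 12 fits that left out 1 sample. By the same average MYD88 was 2.08-fold higher (1.06, SE 0.15, adjusted p = 0.000319, edgeR), so 2 of 6 members were called, against 16.7% of all genes. For TNFα averaged over the genotypes, the members called were MAP3K8 (1.34, SE 0.09, adjusted p = 3.23e-07) and IRAK2 (0.95, SE 0.10, adjusted p = 3.86e-05), 2 of 6 against 2.17% of all genes, and both rose, against 1.36%.

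**Figure D2:**
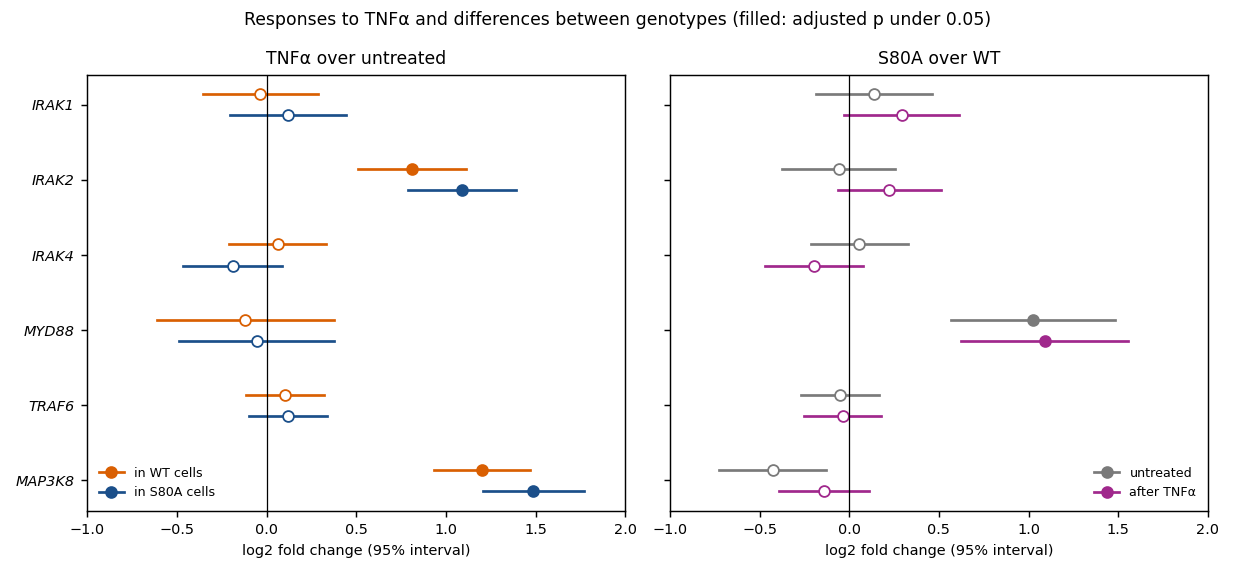
Log2 fold changes (horizontal axes) of the 6 genes (vertical axis) with 95% intervals (lines) from edgeR, for TNFα over untreated (left) and NFKB1 S80A over WT (right), each from 3 samples per group. Filled circles passed an adjusted p of 0.05. MAP3K8 and IRAK2 pass on the left in both genotypes, and on the right only MYD88 passes.

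Whether the response to TNFα differed between genotypes was tested by the interaction term, and no member passed. The difference in log2 response, NFKB1 S80A minus WT, was 0.29 for MAP3K8 (95% interval -0.11 to 0.68) and 0.28 for IRAK2 (-0.14 to 0.71). It was 0.15 for IRAK1 (-0.30 to 0.61), -0.25 for IRAK4 (-0.64 to 0.13), 0.06 for MYD88 (-0.59 to 0.72) and 0.01 for TRAF6 (-0.29 to 0.32). Adjusted p was at least 0.911 for each (edgeR). The intervals leave room for differences in either direction, widest for MYD88. Of all genes tested, 0.0% were called for the interaction by edgeR and 0 by DESeq2, and 520 had an unadjusted p under 0.05, with 0 members among them.

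Levels between genes were compared as CPM per kilobase of exon. In untreated WT cells IRAK1 came first at 121 ± 8.06 (SD, n = 3), 38.3 times TRAF6 at 3.17 ± 0.0590. IRAK2 at 2.29 ± 0.318 and IRAK4 at 2.03 ± 0.326 followed, and their ranges overlapped. MAP3K8 at 1.18 ± 0.0713 and MYD88 at 0.914 ± 0.145 were lowest. In untreated NFKB1 S80A cells the order of the last pair was turned, with MYD88 at 1.85 ± 0.439, overlapping IRAK4, and MAP3K8 at 0.883 ± 0.0678. After TNFα, IRAK2 was next to IRAK1, at 4.01 ± 0.0704 in WT and 4.67 ± 0.699 in NFKB1 S80A cells. In treated WT cells the IRAK2 range overlapped that of TRAF6, at 3.41 ± 0.479. MAP3K8 stood above IRAK4 and MYD88 after TNFα, at 2.72 ± 0.153 in WT and 2.47 ± 0.235 in NFKB1 S80A cells. Per length of the canonical transcript in place of all exons, IRAK1 remained first in every group, but in untreated WT cells IRAK4 came second and the ranges of MAP3K8 and MYD88 overlapped. After TNFα the order of MAP3K8 and IRAK4 was turned on that scale, with MAP3K8 at 3.36 ± 0.189 and IRAK4 at 3.605 ± 0.313 in WT and 3.04 ± 0.290 and 3.15 ± 0.0588 in NFKB1 S80A cells, and their ranges overlapped in both genotypes.

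**Figure D3:**
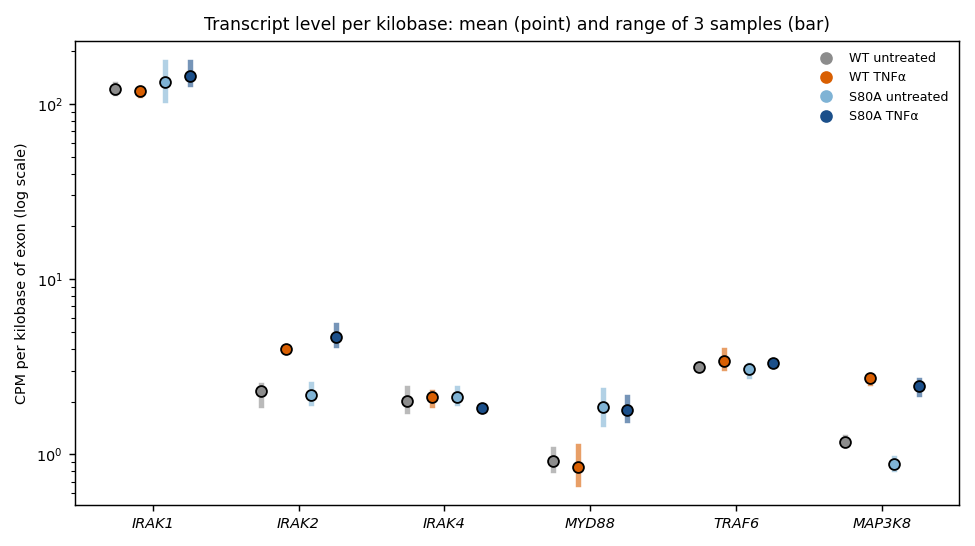
Transcript level of the 6 genes in CPM per kilobase of exon (vertical axis, log scale) in the 4 groups. Points are means of 3 samples and bars their range. IRAK1 lies above 100 in every group, while the means of the other 5 genes lie between 0.842 and 4.67.

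The makeup of the IRAK transcripts followed IRAK2. On the same scale IRAK1 made up 96.6% of the sum of IRAK1, IRAK2 and IRAK4 in untreated WT cells. The IRAK2 share went from 1.84% ± 0.357 to 3.23% ± 0.144 with TNFα in WT cells and from 1.62% ± 0.187 to 3.09% ± 0.0769 in NFKB1 S80A cells (SD, n = 3), with no overlap between treated and untreated samples. IRAK3, the inhibitory IRAK of myeloid cells, had 3 to 12 counts and was not among the genes tested.

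TPL2 is bound by p105, and their transcripts rose together. Per 100 NFKB1 counts there were 7.64 ± 0.795 MAP3K8 counts in untreated WT cells and 7.28 ± 0.736 after TNFα, and 6.03 ± 1.05 and 5.70 ± 0.975 in NFKB1 S80A cells (SD, n = 3). The groups overlapped throughout. NFKB1 itself rose 2.42-fold in WT cells (log2 fold change 1.27, SE 0.10, adjusted p = 4.99e-06, edgeR) and 2.95-fold in NFKB1 S80A cells (1.56, SE 0.10, adjusted p = 3.19e-07). TNIP2, the third part of the complex, was not called in any comparison, with a log2 response of -0.05 in WT cells and one of 0.17 in NFKB1 S80A cells.

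The wider pathway was described by 6 lists holding 57 genes, of which 41 could be tested. With TNFα, 3 rose and 0 fell in WT cells, where 0.577% of all genes rose and 0.111% fell. In NFKB1 S80A cells 5 rose and 0 fell, where 0.966% of all genes rose and 0.292% fell. The median log2 response of the 41 was -0.01 and 0.06, and that of all genes tested 0.00 in both. Between genotypes, 2 were higher and 0 lower in untreated NFKB1 S80A cells, where 2.05% of all genes were higher and 4.21% lower. After TNFα 3 were higher and 1 lower, where 2.92% of all genes were higher and 4.44% lower. The medians of the 41 were 0.01 and 0.09, beside 0.01 and 0.00 for all genes.

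Of 17 receptors on the lists, 4 were tested: IL1R1, IL1RAP, IL18R1 and TLR5. TLR4, the endotoxin receptor, and IL1RL1 were at 0 counts in every sample, and the 8 other Toll-like receptors that were not tested had at most 14 counts in any sample. IL1R1, the interleukin-1 receptor, had 36.5 ± 8.35 normalised counts in untreated WT and 18.1 ± 5.24 in untreated NFKB1 S80A cells, and 29.7 ± 8.67 and 21.9 ± 6.81 after TNFα. The log2 difference of IL1R1 was -0.98 (adjusted p = 0.0756, edgeR) and -0.41 (0.482). TLR5, the flagellin receptor, had 10.2 ± 2.11 in untreated WT and 15.98 ± 6.74 in untreated NFKB1 S80A cells, and 9.64 ± 3.64 and 18.6 ± 2.36 after TNFα. The log2 difference of TLR5 was 0.69 (adjusted p = 0.311, edgeR) and 0.94 (0.132). Both receptors passed when the genotype difference was averaged over treatments, IL1R1 at -0.70 (SE 0.22, adjusted p = 0.0412, edgeR) and TLR5 at 0.82 (SE 0.25, adjusted p = 0.0393). Each of these calls was lost in 8 of the 12 fits that left out 1 sample.

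Among the 5 adaptors tested beside MYD88, TIFA and TICAM1 rose. TIFA, a protein that binds TRAF6 and promotes its oligomerisation, went from 246 ± 16.8 to 619 ± 49.7 normalised counts in WT cells and from 247 ± 30.9 to 722 ± 88.4 in NFKB1 S80A cells. These were log2 responses of 1.33 (SE 0.12, adjusted p = 2.01e-05, edgeR) and 1.55 (SE 0.12, adjusted p = 2.20e-06). TICAM1, which encodes the TLR3 and TLR4 adaptor TRIF, passed in NFKB1 S80A cells (0.98, SE 0.16, adjusted p = 0.00405), from 59.4 ± 4.35 to 117 ± 9.08, and had 59.0 ± 5.28 and 90.7 ± 16.6 in WT cells. The interaction was not called for any gene, so the TICAM1 responses are not shown to differ. TICAM2 was at 0 counts.

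Of the 6 brakes and Pellino ligases tested, PELI1, a ubiquitin ligase that binds IRAKs, rose with TNFα when averaged over genotypes (0.35, SE 0.07, adjusted p = 0.0112, edgeR). PELI3, its relative, was higher in NFKB1 S80A cells by the averaged difference (0.34, SE 0.08, adjusted p = 0.00858). Of the 9 genes of the TAK1 and IKK step, IKBKB, which encodes the kinase IKKβ, rose in NFKB1 S80A cells, from 752 ± 43.8 to 1033 ± 91.9 normalised counts (0.46, SE 0.08, adjusted p = 0.00833). In WT cells, where it was not called, it had 781 ± 13.9 untreated and 933 ± 6.92 after TNFα. No gene was called for the interaction, so the IKBKB responses are not shown to differ. Averaged over genotypes the IKBKB response was 0.36 (SE 0.06, adjusted p = 0.00222). CHUK, which encodes IKKα, was lower in NFKB1 S80A cells after TNFα (-0.35, SE 0.10, adjusted p = 0.0460), a call lost in 9 of the 12 fits that left out 1 sample. It was also lower by the averaged difference (-0.28, SE 0.07, adjusted p = 0.0137), which was called in all 12. Without both NFKB1 S80A samples numbered 1, both CHUK calls were lost, at -0.33 (adjusted p = 0.0896, edgeR) and -0.23 (0.0563).

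Below TPL2, the lists held the ERK cascade and 12 genes known as ERK targets. MAP2K2, which encodes the TPL2 substrate MEK2, was higher in NFKB1 S80A cells after TNFα (0.32, SE 0.07, adjusted p = 0.0152, edgeR), and MAP2K1 and MAPK3 were not called. The MAP2K2 call was lost in 4 of the 12 fits that left out 1 sample. It was also lost without both NFKB1 S80A samples numbered 1 (0.31, adjusted p = 0.0528, edgeR). By the averaged genotype difference MAP2K2 was called in all of these fits. Of the 11 ERK targets tested, PHLDA1 rose with TNFα in both genotypes, by 1.30 (SE 0.21, adjusted p = 0.00625) in WT and 1.24 (SE 0.20, adjusted p = 0.00445) in NFKB1 S80A cells. EPHA4, a receptor tyrosine kinase, fell by the averaged response (-0.49, SE 0.10, adjusted p = 0.0167), as did 0.813% of all genes. The fall of EPHA4 was lost as a call in 4 of the 12 fits that left out 1 sample. The same held without both NFKB1 S80A samples numbered 1 (-0.45, adjusted p = 0.0840, edgeR).

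Between genotypes, the ERK targets had the highest median of the 6 lists. ETV5, a transcription factor, had 12.6 ± 4.37 normalised counts in untreated WT and 42.6 ± 7.24 in untreated NFKB1 S80A cells, a log2 difference of 1.73 (SE 0.29, adjusted p = 0.00271, edgeR). SPRY2, an inhibitor of receptor tyrosine kinase signalling, had 244 ± 13.1 and 421 ± 29.4, a difference of 0.79 (SE 0.11, adjusted p = 0.000525). Both were also higher after TNFα, by 1.94 and 0.58. Averaged over treatments, 5 of the 11 were higher and 1 lower in NFKB1 S80A cells, against 7.21% and 9.47% of all genes, with a median of 0.38 beside 0.0045 for all genes. The others higher by the average were DUSP6 (0.86) and DUSP4 (0.58), phosphatases that act on MAP kinases, and EPHA4 (0.34), and FOSL1, a subunit of AP-1, was lower (-0.86). DUSP6 rested on 6 to 19 raw counts and FOSL1 on 5 to 21. Leaving out 1 sample lost the call of FOSL1 in 11 of 12 fits, of EPHA4 in 7 and of DUSP4 in 6.

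**Figure D4:**
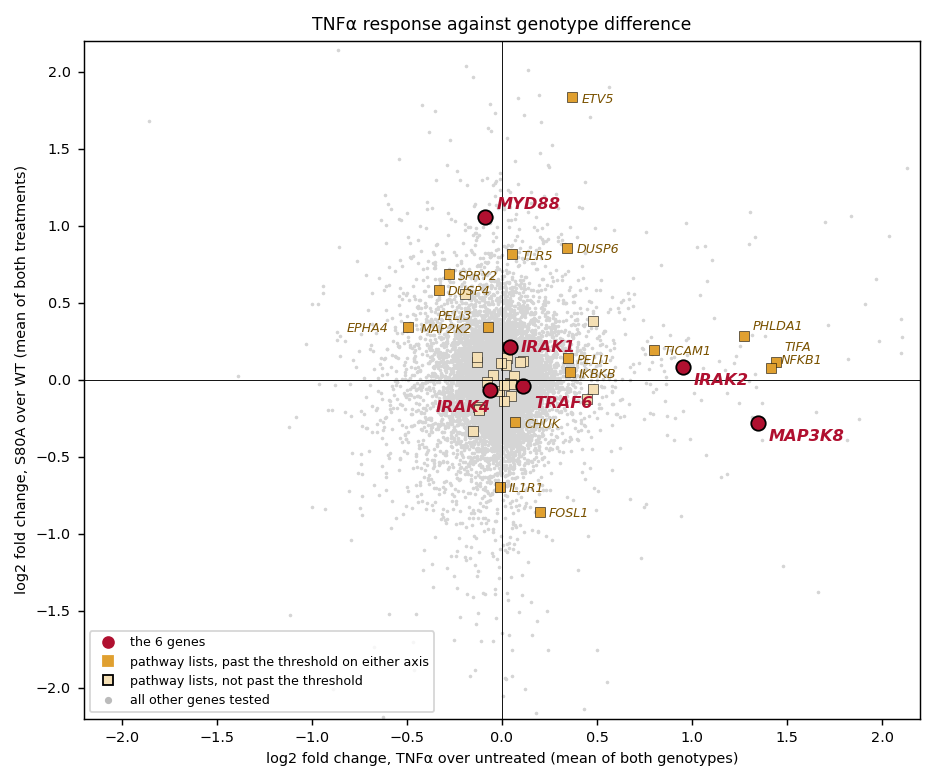
Log2 response to TNFα averaged over genotypes (horizontal axis) against the log2 difference of NFKB1 S80A over WT averaged over treatments (vertical axis), from edgeR. Grey points are genes tested, circles the 6 members and squares the genes of the pathway lists, dark where they passed the test on either axis. Both axes end at 2.2, which leaves 70 genes outside. MAP3K8 and IRAK2 lie to the right at 1.34 and 0.95, and MYD88 lies highest of the 6 members at 1.06.

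The genes whose log2 CPM followed each member most closely over the 12 samples were found among 13057 genes. The 12 samples share 4 groups and their libraries, so a correlation can come from groups or from single samples. IRAK2 was closest to CXCL1 (Pearson r = 0.984), BCL3 (0.983) and RQCD1 (0.983), and MAP3K8 to CALCB (0.977), IER3 (0.972) and HAND1 (0.971). MYD88 was closest to NPTX1 (0.980), TLE2 (0.979) and FAT3 (0.971), none of which was on the pathway lists. IRAK1 was closest to MAN2B2 (0.972), ANK1 (0.969) and TNFRSF1A (0.962), the last encoding a TNFα receptor. IRAK4 and TRAF6 had looser neighbours, IRAK4 with FBXL5 (0.879), TRMT13 (0.866) and HNRNPU-AS1 (0.862) and TRAF6 with TXNDC5 (0.807), LRCH1 (0.794) and SLX4IP (0.782). Among the members, IRAK2 and MAP3K8 were closest to each other (r = 0.916), followed by IRAK1 and MYD88 (0.695).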

How the data were processed

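RNA was sequenced as single-end 75 bp reads from 12 samples, described by the study as independently generated triplicates of each condition. The authors aligned reads to GRCh38 with HISAT, used HTSeq-count to count them, and the deposited values are raw counts for each gene symbol. Versions and counting options are not given in the sources used here. The deposited lists of differentially expressed genes hold the authors' fold changes, p-values and normalised values, and were not used.

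Samples were grouped by their labels, and columns matched by sample title, since the descriptions of TNFα-treated WT replicates 2 and 3 are the same. Of 33121 genes, 28 with dates in place of symbols were dropped, which held at most 0.233% of a sample's counts. Counts were scaled by TMM, filtered with filterByExpr (minimum count 10; 14383 genes) and fitted with edgeR 4.0.16 in R 4.3.3, in a quasi-likelihood model with 1 mean per group over all 12 samples, checked on simulated data. The averaged comparisons are means of the log2 differences in both genotypes or both treatments. Adjusted p-values are Benjamini-Hochberg values over all genes tested.

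The members, lists, markers and tests were chosen with earlier results of these data known. Named were the 6 members, NFKB1, TNIP2, the markers, genes of the pathway lists past the threshold (at most the 4 largest per list and direction), and for each member the 3 genes of highest Pearson correlation of log2 CPM (prior count 2) among those with a mean of at least 1 CPM. Other list genes, such as those at or near 0 counts, and TWF1 were named after their values were seen.

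Exon lengths and positions came from GENCODE 44, and promoters from RefSeq (GRCh38.p14). Levels per kilobase used the union of a gene's exons. Other settings tried were DESeq2 1.42.0 as the test, its size factors or total counts as the scaling, no filter, a minimum of 10 counts throughout, a block for replicate number, fits to only the samples compared, another κB motif, and each sample left out. Leaving out both NFKB1 S80A samples numbered 1, and canonical transcript lengths, were added after seeing the data. Tables used Python 3.11.15 and pandas 2.3.3, and figures matplotlib 3.10.9.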

Additional observations from a re-analysis of the deposited data

How the results depend on the processing

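With the replicate number as a block, all genes past the threshold numbered 113 for TNFα in WT cells and 208 for TNFα in NFKB1 S80A cells, 1232 between untreated and 1469 between treated genotypes, 397 and 2857 for the averages and 0 for the interaction, and no member's call changed. Deviations from group means correlated above 0.1 in 9 of 18 same-number pairs (mean r = 0.118), and 5 of 12 samples correlated best with their own number. The mean r for different numbers, -0.059, adds nothing, because deviations sum to 0 within a group and so nearly fix it. All 6 pairs of samples numbered 1 did so (r from 0.116 to 0.495), against 1 of 6 for number 2 and 2 of 6 for number 3, so the samples numbered 1 deviated together, and the numbers as a whole were not taken as pairs.

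The calls of MAP3K8 and IRAK2 for TNFα and of MYD88 between genotypes held under every alternative apart from the samples left out named above. The averaged genotype comparison called 1 member in place of 2 with the DESeq2 test, DESeq2 size factors, total counts, no filter, or without both NFKB1 S80A samples numbered 1, each time losing MAP3K8 (adjusted p from 0.0523 to 0.101). All genes past the threshold moved from 99 to 158 for TNFα in WT cells with DESeq2. They moved from 181 to 71 for TNFα in NFKB1 S80A cells and from 900 to 456 between untreated genotypes with only the samples compared. Without both samples numbered 1, 181 became 103 and 1058 between treated genotypes became 632, IRAK1 turned to -0.091 in untreated cells and IRAK2 to -0.042 in the averaged genotype difference. The other κB form matched 0 members' promoters in place of 1. The causes were not tested, and fewer samples or degrees of freedom entered the last fits by construction.

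Leaving out 1 sample gave 1 to 2 members called for TNFα in WT cells, 0 to 1 for each genotype comparison and 1 to 3 for its average. All genes past the threshold then ranged from 65 to 145 and 98 to 193 for the TNFα responses of WT and NFKB1 S80A cells, and from 356 to 1039 and 434 to 1646 between untreated and treated genotypes. Log2 values that were not called changed sign in some of these fits, over these ranges. For TNFα in WT cells they ran from -0.076 to 0.021 for IRAK1, -0.029 to 0.20 for IRAK4, -0.36 to 0.016 for MYD88 and -0.013 to 0.16 for TRAF6, and in NFKB1 S80A cells from -0.032 to 0.35 for IRAK1 and -0.20 to 0.15 for MYD88. Between untreated genotypes they ran from -0.091 to 0.29 for IRAK1, -0.17 to 0.010 for IRAK2, -0.039 to 0.19 for IRAK4 and -0.092 to 0.0085 for TRAF6, and between treated genotypes from -0.10 to 0.080 for TRAF6. The interaction ran from -0.086 to 0.31 for MYD88 and -0.047 to 0.13 for TRAF6, the averaged TNFα response from -0.033 to 0.16 for IRAK1, -0.11 to 0.0038 for IRAK4 and -0.21 to 0.015 for MYD88, and the averaged genotype difference from -0.072 to 0.016 for TRAF6. MYD88 and MAP3K8 rested on 52 to 196 raw counts in a sample.

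Of 32 calls of pathway genes over all comparisons, 6 were lost in at least 1 setting that kept every sample of the groups compared. DESeq2 lost DUSP6, FOSL1 and TLR5 in the averaged genotype difference (adjusted p = 0.0562, 0.0850 and 0.0677), total counts lost FOSL1 and IL1R1 there (0.0501 and 0.0528), DESeq2 size factors lost CHUK after TNFα (0.0529), and only the samples compared lost IKBKB in NFKB1 S80A cells (0.141). Leaving out 1 sample lost 10 of the 32 calls at least once, among them PHLDA1 in WT cells without untreated WT replicate 2 (adjusted p = 0.0552), and leaving out both NFKB1 S80A samples numbered 1 lost 10. Those last 10 were IKBKB with TNFα in NFKB1 S80A cells, CHUK and MAP2K2 between treated genotypes, EPHA4 in the averaged TNFα response, and others in the averaged genotype difference. The latter were CHUK, DUSP4, DUSP6, EPHA4, FOSL1 and TLR5.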
